A study of Homo sapiens with 3 samples.

Results

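The p53 axis and growth arrest genes CDKN1A, MDM2, MDM4, GADD45A, GADD45B, BTG2, SESN1, TP53I3 and PHLDA3 were examined in H660 cells treated with the HSP70 inhibitor JG231. They were taken by gene symbol, and all 9 were found, each in 1 row of a table of 58735 genes. H660 (NCI-H660) was established from a neuroendocrine prostate cancer, and JG231 binds the chaperone HSP70 at an allosteric site. The parental cells received vehicle (DMSO), 2.5 μM JG231 or 5 μM JG231 for 24 h, and mRNA was sequenced from 1 strand-specific library per condition. Since no condition was replicated, neither a standard deviation nor a p-value was available, and each value describes its library. The values are FPKM, fragment numbers scaled by transcript length and by sequencing depth, and comparison between libraries depends on that scaling.

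The sample records name the cells as prostatic adenocarcinoma, while the study describes a neuroendocrine line. All 10 neuroendocrine markers examined exceeded 1 FPKM in at least 1 library, and the granule protein CHGA had 46.0 FPKM with DMSO, 15.0 with 2.5 μM and 12.7 with 5 μM JG231. CHGA, CHGB, NCAM1, ONECUT2, ENO2 and SYP were lower than in DMSO at both doses, and SCG2 was higher at both. INSM1 was higher at 2.5 μM and lower at 5 μM. FOXA2 had 0.979 FPKM with DMSO, 2.13 with 2.5 μM and 1.12 with 5 μM JG231. Of 8 prostate luminal markers, only FKBP5 exceeded 1 FPKM in any library, KLK2 was listed at 0 in all 3, and HOXB13, KLK3, STEAP2 and TMPRSS2 lay below 1 FPKM throughout. Of 12 fibroblast, endothelial and leukocyte markers, 5 were listed at 0 in all 3 libraries (CD3E, DCN, LYZ, PECAM1 and PTPRC). The remaining markers were COL1A1, COL1A2, COL3A1, LUM, VWF, CD14 and the endothelial cadherin CDH5, the last with 4.92, 0.476 and 0.581 FPKM, and the 12 together summed to 7.059 FPKM with DMSO, 2.027 with 2.5 μM and 3.068 with 5 μM JG231. Whether the share of any cell type or the RNA per cell moved cannot be told apart in bulk RNA. Depth, read from the steps of the FPKM values, was 16.1 M fragments in DMSO, 20.4 M at 2.5 μM and 24.1 M at 5 μM.

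The transcription factor p53 is held at low levels by MDM2, a ubiquitin ligase, and by its relative MDM4, which binds and restrains p53. Stabilised p53 switches on MDM2 itself, which closes a feedback loop, together with genes that stop the cell cycle, adjust metabolism or start apoptosis. CDKN1A encodes p21, an inhibitor of cyclin-dependent kinases, and GADD45A, GADD45B and BTG2 encode further growth arrest proteins. Several of these genes are also switched on without p53, for example by ATF4 and CHOP in the integrated stress response or as immediate early genes.

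p53 binds a DNA element made of a pair of adjacent repeats with the core CATG or a close variant. The genome (GRCh38, the build named in the submitters' processing notes) was searched within 2500 bases on either side of the start of the canonical transcript of each gene for the p53 consensus element of 20 bases without a spacer, with both C and G of each core intact and at most 2 other mismatches. Of 20033 protein-coding genes, 3.77% held such a match, and 0.519% held one with at most 1 mismatch. Among the members, 5 of 9 had a match, and these are shown because they include both genes that were higher and a gene that was lower after JG231. Capitals mark the core of each repeat, and each is written along the strand of its gene.

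CDKN1A: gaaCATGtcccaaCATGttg

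GADD45A: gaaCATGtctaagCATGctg

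MDM2: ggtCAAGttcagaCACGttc

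BTG2: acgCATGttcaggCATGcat

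GADD45B: agaCTTGgttgaaCTTGgtt

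The CDKN1A match lay upstream, at position -2256 from the start (chr6:36676449-36676468, plus strand). That of GADD45A lay in intron 3 (chr1:67686775-67686794, plus strand) and differed from the consensus at 1 position, and each of the others differed at 2. The MDM2 match lay in intron 1 (chr12:68808923-68808942, plus strand), that of BTG2 upstream at position -1868 (chr1:203303642-203303661, plus strand) and that of GADD45B in an exon, 1903 bases after the start (chr19:2478021-2478040, plus strand). MDM4, PHLDA3, SESN1 and TP53I3 had no match within these limits, which says only that these letters were not in this window. A match is a description of the sequence, and binding was not measured.

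Promoters were available from RefSeq (GRCh38.p14) for 7 of the 9 members, with 12 starts. Those of CDKN1A and GADD45B are shown because both genes were higher at both doses and held different motifs by this search. Each run ends at the base before the RefSeq start. Capitals mark motifs on either strand. The TATA box, searched as TATAAA, is held by 10.7% of 35116 RefSeq promoters of the same 250 bases, the CAAT box, searched as CCAAT, by 32.0%, and the GC box, searched as GGGCGG, by 42.6%. Among the 7 members with a promoter, a TATA box by this search was found only at the start of GADD45B. Variants of these letters were not searched, and the CDKN1A run holds the close variant tatatca near its end.

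CDKN1A, chr6:36678464-36678713, plus strand: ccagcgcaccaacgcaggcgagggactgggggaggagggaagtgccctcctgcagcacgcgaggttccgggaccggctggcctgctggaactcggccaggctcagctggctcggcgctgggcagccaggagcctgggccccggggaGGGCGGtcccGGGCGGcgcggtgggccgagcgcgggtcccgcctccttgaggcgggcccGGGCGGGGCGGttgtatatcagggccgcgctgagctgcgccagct

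GADD45B, chr19:2475877-2476126, plus strand: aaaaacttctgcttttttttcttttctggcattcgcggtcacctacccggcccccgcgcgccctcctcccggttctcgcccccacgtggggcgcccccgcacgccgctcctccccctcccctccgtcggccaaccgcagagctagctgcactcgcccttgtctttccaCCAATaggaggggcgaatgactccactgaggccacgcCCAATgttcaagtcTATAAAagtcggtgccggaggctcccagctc

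The cyclic AMP response element, searched as TGACGTCA, and the ATF4 composite element, searched as TGATGNAAN, were found on neither strand in the promoters of these 7 members and in 1.65% and 3.13% of all promoters. TGANTCA (the AP-1 site) was found among them only at 2 starts of MDM2, and in 6.57% of all promoters. These searches say nothing of sites outside these windows, and GADD45A and PHLDA3 were not searched.

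The members were compared between each JG231 library and DMSO on the scale log2((FPKM + 0.1)/(DMSO FPKM + 0.1)), and a gene was called higher or lower with an FPKM over 1 in either library and a change past 0.25, limits that the study's methods give for the input of a principal component analysis and that serve here as the rule for calls. Genes listed at 0 in a library, which the study also kept, had no exemption from these limits here. All 9 members passed the FPKM filter. CDKN1A, GADD45A, GADD45B, SESN1 and PHLDA3 were higher at both doses, MDM2 and MDM4 were lower at both, and BTG2 and TP53I3 were within 0.25 at both. At 2.5 μM this gave 5 of 9 members higher, against 36.4% of 15746 genes, and 2 lower, against 43.4%. At 5 μM it gave 5 higher, against 36.5% of 15765 genes, and 2 lower, against 45.1%. Past a change of 1, 5 members were higher at 2.5 μM, against 12.9% of all genes, and 4 at 5 μM, against 14.7%. At 2.5 μM SESN1 (1.0) and CDKN1A (1.05) lay close to this limit. Both fell below it (0.72 and 0.76) when mitochondrial and small RNA genes were left out of the scaling. No member was lower by more than 1 at either dose, against 21.7% of all genes at 2.5 μM and 24.3% at 5 μM.

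The median change of the members was 1.0 at 2.5 μM and 0.60 at 5 μM, beside -0.08 and -0.11 over all genes tested. The changes at 2.5 μM and 5 μM share their DMSO library and are not independent. The share of all genes called depended on scaling. With the libraries rescaled to a common sum without mitochondrial and small RNA genes, which shifted every gene by -0.29 at 2.5 μM and -0.38 at 5 μM, 24.6% of genes were higher and 56.2% lower at 2.5 μM, and 23.0% and 60.1% at 5 μM. Under this scaling SESN1 was no longer called at 5 μM (0.23) and BTG2 was called lower at both doses (-0.39 and -0.45).

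**Figure D1:**
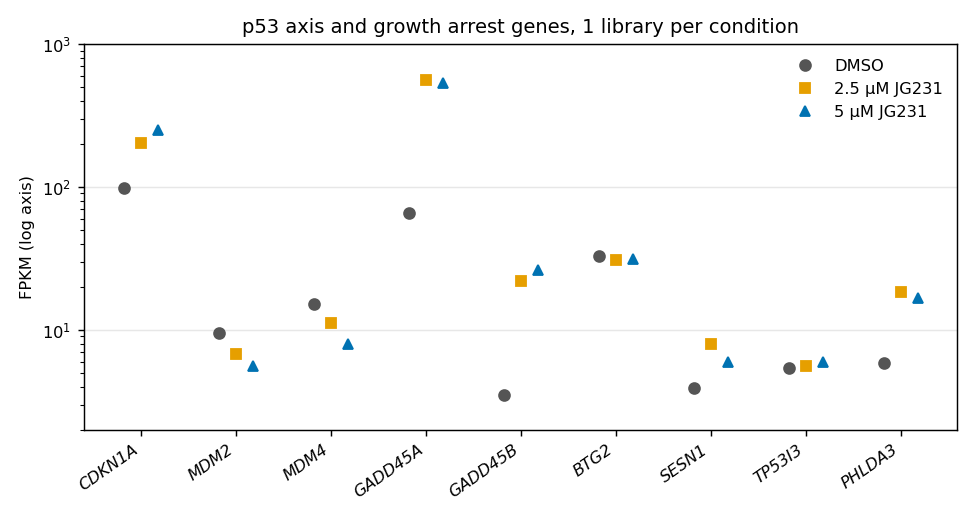
FPKM of the 9 members (log axis) in the DMSO, 2.5 μM and 5 μM JG231 libraries, 1 point per library. GADD45A goes from 66.0 FPKM in DMSO to over 500 at both doses, while MDM2 and MDM4 decline with each dose and BTG2 stays between 30.7 and 33.1.

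Both brakes on p53 were lower after JG231. MDM2 (ENSG00000135679, chromosome 12, 68808177 to 68845544, plus strand) had 9.46 FPKM with DMSO, 6.81 with 2.5 μM and 5.62 with 5 μM JG231. The value was highest in DMSO and lowest at the higher dose. On the log2 scale it changed by -0.47 at 2.5 μM and by -0.74 at 5 μM. The 95% counting interval at 5 μM, an exact binomial interval of the recovered fragments, was -0.87 to -0.63, and it covers counting error only, since no molecular identifiers are described and PCR copies of a fragment may count again. In place of a replicate error, the 5 μM library was set against the 2.5 μM library, and the robust standard deviation of that log2 difference over the 500 genes nearest in mean FPKM is here called the spread; it includes any real effect of dose. It was 0.34 for MDM2, so the change was 1.4 times the spread at 2.5 μM and 2.2 times at 5 μM. Between the JG231 libraries MDM2 differed by -0.27 (counting interval -0.40 to -0.16), within this spread. The carboxypeptidase gene CPM shares 133 exon bases with MDM2 on the opposite strand, and its values were 26.2, 5.80 and 3.06 FPKM. At the mean coverage of CPM these bases would hold 56 fragments in DMSO, or 4.43% of the 1264 fragments of MDM2, and although the libraries were stranded, the sources used here do not say whether reads were assigned by strand.

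MDM4 (ENSG00000198625, chromosome 1, 204516379 to 204558120, plus strand) had 15.2 FPKM with DMSO, 11.1 with 2.5 μM and 7.93 with 5 μM JG231. As with MDM2, the order followed the dose. The log2 changes were -0.45 and -0.93, or 1.5 and 3.1 times its spread of 0.30. Against 2.5 μM, the 5 μM library was lower by a log2 change of -0.48 (counting interval -0.57 to -0.41).

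These are also the members with the longest transcripts, and long transcripts as a class were lower after JG231. The canonical transcript has 7490 bases for MDM2 and 10050 for MDM4. When expressed protein-coding genes were split into 10 length classes, the longest held transcripts from 7460 bases, and there the median change was -0.26 at 2.5 μM and -0.52 at 5 μM. In the shortest class, up to 1276 bases, it was 0.43 and 0.61. With the trend on length removed, MDM2 had a change of -0.25 at 2.5 μM and -0.33 at 5 μM, and MDM4 of -0.15 and -0.39, so that neither was called at 2.5 μM and both were still called lower at 5 μM. The part of transcript length in these changes was not tested otherwise.

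**Figure D2:**
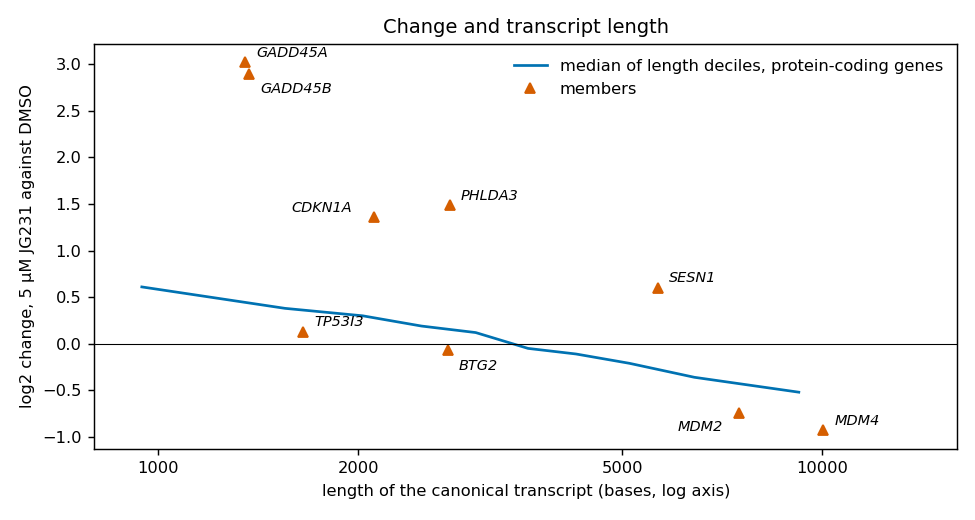
Log2 change at 5 μM against DMSO (vertical axis) by length of the canonical transcript in bases (log axis), for the 9 members (triangles) and for the medians of 10 length classes of protein-coding genes (line). The line runs from 0.61 in the shortest class to -0.52 in the longest, MDM2 and MDM4 lie below its long end, and GADD45A, GADD45B, CDKN1A, PHLDA3 and SESN1 lie above it.

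The cell cycle inhibitor of the group was higher at both doses. CDKN1A (ENSG00000124762, chromosome 6, 36676460 to 36687337, plus strand) had 97.6 FPKM with DMSO, 201.9 with 2.5 μM and 250.2 with 5 μM JG231. It was already among the abundant transcripts in DMSO, above 97.9% of the protein-coding genes with a mean of at least 1 FPKM. The increase was 2.07-fold at 2.5 μM and 2.56-fold at 5 μM, log2 changes of 1.05 and 1.36 that were 5.2 and 6.8 times its spread of 0.20. The 5 μM library exceeded the 2.5 μM library by 0.31 (counting interval 0.28 to 0.34), but this step depended on scaling: with both libraries brought to a common sum the changes against DMSO were 1.10 and 1.23, closer together than the spread. DINOL, a noncoding RNA gene on the opposite strand with 146 exon bases in common with CDKN1A, had 0.784 FPKM in DMSO, from 12 fragments, and was listed at 0 at both doses.

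GADD45A and GADD45B, small proteins that bind stress kinases and cell cycle regulators, had the largest changes of the members. GADD45A (ENSG00000116717, chromosome 1, 67685201 to 67688334, plus strand) had 66.0 FPKM with DMSO, 563.1 with 2.5 μM and 535.3 with 5 μM JG231. This was 8.52-fold and 8.10-fold higher, log2 changes of 3.09 and 3.02 that lay above those of 97.1% and 97.2% of all genes tested. The JG231 libraries differed by -0.07, within the spread of 0.20, but with the libraries brought to a common sum the changes were 3.14 and 2.89, further apart than the spread.

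GADD45B (ENSG00000099860, chromosome 19, 2476122 to 2478259, plus strand) had 3.49 FPKM with DMSO, from 120 fragments, 22.0 with 2.5 μM and 26.4 with 5 μM JG231. In DMSO it was the lowest of the members, and at both doses it exceeded MDM2, MDM4, SESN1, TP53I3 and PHLDA3. The log2 change was 2.63 at 2.5 μM (counting interval 2.38 to 2.95) and 2.89 at 5 μM (2.65 to 3.20), both over 9 times its spread of 0.28. Both genes have short transcripts, and with the length trend removed the change at 5 μM was 2.56 for GADD45A and 2.43 for GADD45B.

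BTG2, an antiproliferative protein that promotes mRNA deadenylation, was not called at either dose. BTG2 (ENSG00000159388, chromosome 1, 203305491 to 203309602, plus strand) had 33.1 FPKM with DMSO, 30.7 with 2.5 μM and 31.5 with 5 μM JG231. The changes of -0.10 and -0.07 were below its spread of 0.26.

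**Figure D3:**
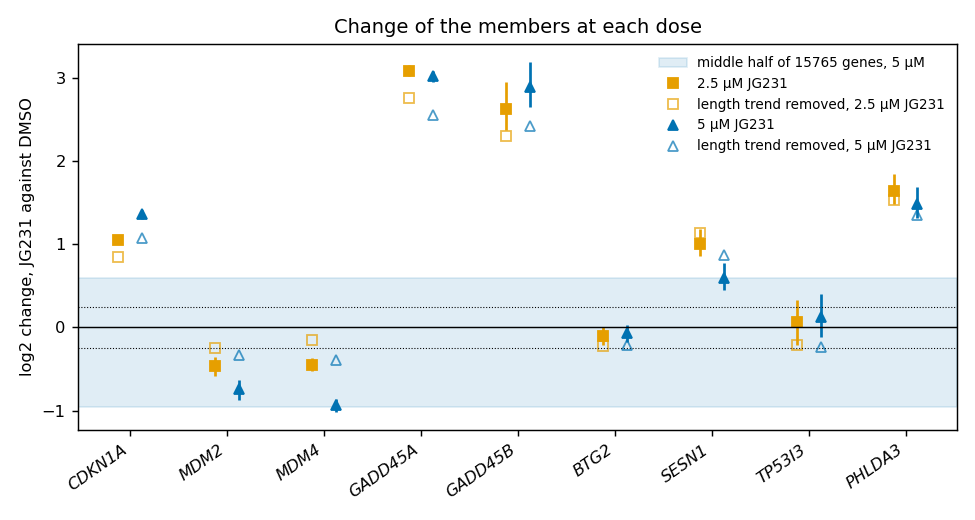
Log2 change of the 9 members against DMSO at 2.5 μM (squares) and 5 μM (triangles), with 95% counting intervals (vertical lines) and the values after removal of the length trend (open symbols). The dotted lines mark ±0.25 and the shaded band runs from the lower to the upper quartile of 15765 genes at 5 μM (-0.96 to 0.59). GADD45A and GADD45B stand highest, and BTG2 and TP53I3 lie near 0.

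Of the members that act on metabolism and survival signals, SESN1 and PHLDA3 were higher and TP53I3 was not called. SESN1, a sestrin that restrains mTORC1 (ENSG00000080546, chromosome 6, 108984309 to 109094846, minus strand), had 3.90 FPKM with DMSO, 7.90 with 2.5 μM and 5.96 with 5 μM JG231. The value at 5 μM lay below that at 2.5 μM, with a log2 difference of -0.40 (counting interval -0.53 to -0.29) against a spread of 0.40. The log2 change against DMSO was 1.0 at 2.5 μM and 0.60 at 5 μM, or 2.5 and 1.5 times the spread. Its transcript of 5664 bases is long, and the change at 5 μM was 0.87 with the length trend removed.

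PHLDA3, a pleckstrin homology domain protein that limits AKT at the membrane (ENSG00000174307, chromosome 1, 201464278 to 201469237, minus strand), had 5.86 FPKM with DMSO, 18.5 with 2.5 μM and 16.6 with 5 μM JG231. Both JG231 libraries were near 3 times the DMSO value, with a 3.13-fold and a 2.80-fold increase. The log2 changes of 1.64 and 1.49 were 5.5 and 5.0 times its spread of 0.30.

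TP53I3, also called PIG3, a quinone oxidoreductase (ENSG00000115129, chromosome 2, 24077433 to 24085861, minus strand), had 5.38 FPKM with DMSO, 5.60 with 2.5 μM and 5.91 with 5 μM JG231. Its 3 values lay close together, on 200 to 329 fragments. The changes of 0.06 and 0.13 were below its spread of 0.39, and the counting interval at 5 μM ran from -0.12 to 0.40. The sign turned with the length trend removed (-0.21 and -0.24).

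The relatives of the members in the same protein families were looked at next. Of 12 such genes 11 passed the FPKM filter, and BTG4 was listed at 0 in all 3 libraries. At 2.5 μM 8 were higher and 2 lower, and at 5 μM 9 were higher and 2 lower, against 36.4% and 43.4% of all genes at 2.5 μM and 36.5% and 45.1% at 5 μM, the shares against which each of the following lists is also to be read. Their medians were 1.16 and 0.85, beside -0.08 and -0.11 over all genes. With the length trend removed they were 0.84 and 0.88. With mitochondrial and small RNA genes left out of the scaling, which shifts every gene, they were 0.86 and 0.47. GADD45G, the remaining GADD45 gene, had 42.6 FPKM with DMSO, 369.7 with 2.5 μM and 304.3 with 5 μM JG231, log2 changes of 3.12 and 2.84. All 3 GADD45 genes were thus higher by more than 2.5 on the log2 scale at both doses.

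The sestrins moved unequally. SESN2 had 4.07 FPKM with DMSO, 41.2 with 2.5 μM and 41.0 with 5 μM JG231, log2 changes of 3.31 and 3.30. SESN3 had 4.26, 2.58 and 1.83 FPKM, changes of -0.70 and -1.18 against a spread of 0.58. Its transcript of 9563 bases is long, and with the length trend removed the changes were -0.42, within the spread, and -0.65. SESN1 lay between them at both doses.

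The BTG/TOB family, which curbs proliferation, held genes that were higher and lower beside BTG2, which was not called. BTG1 had 33.4 FPKM with DMSO, 89.4 with 2.5 μM and 96.7 with 5 μM JG231, and BTG3 had 44.3, 98.8 and 110.7. TOB1 was higher, with changes of 0.60 and 0.73, and TOB2 lower, with -0.85 and -1.09. PHLDA2 was higher at both doses, with 5.21, 17.2 and 29.0 FPKM, and PHLDA1 with 2.13, 5.86 and 3.26 FPKM had a change of 0.59 at 5 μM, close to its spread of 0.51. The p21 relative CDKN1B had changes of 0.87 and 0.85, and CDKN1C, on 93 fragments in DMSO, had 0.23 and 0.53 within its spread of 0.58.

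Of 25 genes in a list of p53 pathway regulators, 24 passed the FPKM filter. Of these, 13 were higher and 6 lower at 2.5 μM, and 12 higher and 6 lower at 5 μM. Their median of 0.26 at 2.5 μM and 0.23 at 5 μM was above that of all genes. It was -0.03 and -0.14 once mitochondrial and small RNA genes were left out of the scaling. That scaling shifts every gene by -0.29 and -0.38, so these values are not to be set against the -0.08 and -0.11 of all genes.

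The regulators with the largest increases at both doses were KAT5, an acetyltransferase, with 4.35, 11.0 and 16.6 FPKM, RCHY1, another ubiquitin ligase for p53, with 3.39, 9.19 and 9.19, and CDKN2A with 81.6, 211.8 and 205.6. CDKN2A encodes both p16 and ARF, the latter an inhibitor of MDM2, and the gene value does not separate them. Among regulators with a mean of at least 1 FPKM, the largest decreases were those of the kinases HIPK2, ATM and ATR. HIPK2 had 3.64, 1.24 and 0.737 FPKM, ATM had 3.34, 1.20 and 0.924, and ATR had 3.43, 2.07 and 1.40. Their spreads were 0.76, 0.77 and 0.71. The change of ATR at 2.5 μM, -0.70, was within its spread, and it was -0.46 with the length trend removed. With the length trend removed the changes at 5 μM were -1.46 for HIPK2, -1.11 for ATM and -0.79 for ATR. For the genes that were higher they were 1.62 for KAT5, 1.56 for RCHY1 and 0.77 for CDKN2A, which has a short transcript and was then no longer among the 3 largest increases.

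A list of 57 other direct p53 target genes held genes with large changes in either direction. Of the 48 that passed the FPKM filter, 26 were higher and 13 lower at 2.5 μM, and 24 higher and 17 lower at 5 μM. The medians were 0.29 and 0.28, beside -0.08 and -0.11 over all genes. After rescaling without mitochondrial and small RNA genes, which shifts every gene by -0.29 and -0.38, they were 0.01 and -0.09. The rescaled values are not to be set against those over all genes before rescaling. GDF15, a secreted stress cytokine, had 178.6 FPKM with DMSO, 1572.2 with 2.5 μM and 1637.0 with 5 μM JG231. BBC3, which encodes the apoptosis inducer PUMA, had 6.10, 38.9 and 36.9 FPKM. The largest increase of the list at both doses was that of SESN2, with log2 changes of 3.31 and 3.30. SESN2 is also counted among the relatives above and the stress genes below.

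Among targets with a mean of at least 1 FPKM, CES2, FUCA1 and TP53INP1 had the largest decreases. The ranking used whichever dose gave the smaller change, and at 5 μM alone some other targets fell further than FUCA1. CES2, a carboxylesterase, had 9.06 FPKM with DMSO, 3.99 with 2.5 μM and 3.61 with 5 μM JG231. FUCA1, a lysosomal fucosidase, had 14.9, 7.82 and 8.87 FPKM. TP53INP1, a p53-induced nuclear protein, had 16.0, 6.87 and 7.76 FPKM.

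Cell cycle genes that p21 represses through the DREAM complex were called in both directions. Of 30 genes, all over 1 FPKM, 13 were higher and 8 lower at 2.5 μM, and 17 higher and 6 lower at 5 μM, beside the shares of 36.4% and 36.5% of all genes that were higher and 43.4% and 45.1% that were lower. The medians were 0.20 at 2.5 μM and 0.30 at 5 μM, beside -0.08 and -0.11 over all genes. They were -0.09 and -0.08 after rescaling without mitochondrial and small RNA genes, which shifts every gene by -0.29 and -0.38. With the length trend removed they were -0.03 and 0.17. CDC20, an activator of the anaphase-promoting complex, had changes of 0.85 and 1.14, CHEK1, a checkpoint kinase, of 0.98 and 0.94, and CDC25A, a phosphatase that activates CDK2, of 0.70 and 0.94. CENPF, a kinetochore protein, had 28.5, 8.14 and 6.99 FPKM, MKI67 had 16.0, 8.55 and 5.55, and CCNB1, the mitotic cyclin, had 48.9, 35.3 and 29.3.

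Genes of the stress programmes that also control members were higher in the same libraries. Of 12 ATF4 and CHOP stress response genes, 10 were higher and 0 lower at 2.5 μM, and 11 higher and 0 lower at 5 μM, with medians of 2.80 and 2.82. DDIT3, which encodes CHOP, had 24.8, 337.9 and 396.8 FPKM, TRIB3, a pseudokinase induced by CHOP, had 5.58, 138.8 and 162.9, and PPP1R15A, also called GADD34, had 6.63, 80.8 and 102.5. Of 16 immediate early genes, 11 passed the FPKM filter at each dose, of which 10 were higher and 0 lower, with medians of 1.44 and 1.67. DUSP1, a phosphatase of stress kinases, had changes of 2.74 and 2.99, KLF6 of 2.73 and 2.88 and JUNB of 1.92 and 1.93, while ZFP36 had -0.15 and -0.08. The part of these programmes in the changes of CDKN1A, GADD45A or GADD45B was not tested.

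**Figure D4:**
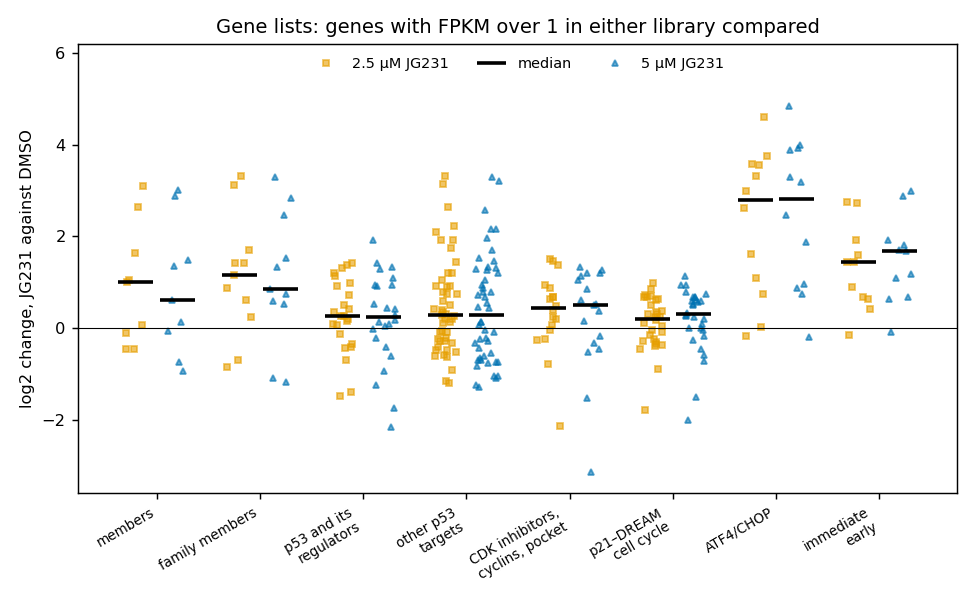
Log2 change against DMSO of each gene with an FPKM over 1 in either library compared, by gene list, at 2.5 μM (squares) and 5 μM (triangles), with the median of each list as a bar. The ATF4 and CHOP genes have the highest medians (2.80 and 2.82), the members 1.0 and 0.60, and the other p53 targets 0.29 and 0.28.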

How the data were processed

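RNA-seq of 3 H660 libraries was analysed, 1 per condition. According to the methods, the authors used HISAT for alignment and StringTie for gene quantification, whereas the submitters' processing notes name HISAT2, featureCounts and GRCh38; versions were not given in the sources used here. The deposited values are FPKM, and no count test was run on them. Of 58735 gene identifiers, 58207 were found in GENCODE 44 (GRCh38). The value of 1 fragment was read from FPKM multiplied by exon length in single-transcript genes, where 92.1%, 89.1% and 87.1% of genes in DMSO, 2.5 μM and 5 μM lay within 0.1 of a whole number. Fragments of genes with several transcripts are approximate. The length trend was a lowess fit (fraction 0.3) on log10 canonical transcript length.

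The members and lists were chosen with earlier results of these data known. The named genes were all members, their relatives and the marker genes, and from each other list up to 3 genes with the largest rise and up to 3 with the largest fall. These were ordered by whichever dose gave the smaller absolute change, with the same sign at both, at a mean FPKM of at least 1. For CDKN1A, MDM2 and GADD45A the 3 genes with the nearest changes were added. Some genes of these lists count in the totals and are not reported here by name. E2F1 was chosen after its values were seen. The alternatives were other pseudocounts, thresholds, filters, scalings and backgrounds, and removal of the length trend. The scripts were tested on simulated data and ran in Python 3.11.15 with matplotlib 3.10.9, statsmodels 0.14.6, pandas 2.3.3, numpy 2.4.6 and scipy 1.17.1.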

Additional observations from a re-analysis of the deposited data

How the results depend on the processing

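The counts of members and the directions of the 7 called members were recomputed under 12 alternatives (11 for SESN1 at 5 μM, which a mean of at least 5 FPKM leaves out, and past the threshold in 10 of them): pseudocounts of 1 and 0.01, a threshold of 1, no FPKM filter or a mean of at least 5, genes at 0 left out, 3 other scalings, removal of the length trend, summed symbols and a protein-coding background. CDKN1A, GADD45A, GADD45B and PHLDA3 kept a change over 0.25 in all of them, with ranges at 5 μM of 0.98 to 1.47, 2.56 to 3.13, 2.43 to 3.00 and 1.11 to 1.60. MDM2 ranged from -1.12 to -0.33 and MDM4 from -1.31 to -0.39 at 5 μM. With the length trend removed, 0 members were lower at 2.5 μM (-0.25 for MDM2 and -0.15 for MDM4) and the median at 5 μM was 0.87. With a threshold of 1, 0 members were lower at either dose. With mitochondrial and small RNA genes left out of the scaling, the median of the members was 0.72 at 2.5 μM and 0.23 at 5 μM. The sign turned for the medians of the p53 regulators at 2.5 μM (-0.03) and 5 μM (-0.14). It also turned for the DREAM genes at 2.5 μM (-0.09) and 5 μM (-0.08) and the other p53 targets at 5 μM (-0.09). This scaling shifts every gene, by -0.29 at 2.5 μM and -0.38 at 5 μM, so a positive median smaller than the shift turns with it. The DREAM median at 2.5 μM also turned with the length trend removed (-0.03). What causes the length trend was not tested. TP53I3 turned sign in 2 alternatives at each dose, and BTG2 at 5 μM when centred on the median gene (0.04). No paired analysis was possible because each condition has 1 library. The call of TP53I3 was uncertain. Its counting intervals, -0.21 to 0.33 and -0.12 to 0.40, cross the threshold of 0.25, and its spread of 0.39 exceeds that threshold. A change of that size was therefore not detectable in these libraries.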

Other observations

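Among the other CDK inhibitors, cyclins, kinases and pocket proteins, 18 of 20 genes passed the FPKM filter, of which 10 were higher and 3 lower at 2.5 μM, and 11 higher and 5 lower at 5 μM. Over all genes 36.4% were higher and 43.4% lower at 2.5 μM, and 36.5% and 45.1% at 5 μM. The median of the list was 0.44 at 2.5 μM and 0.51 at 5 μM, and 0.15 and 0.14 with mitochondrial and small RNA genes left out of the scaling. CDKN2D, which encodes the CDK4 and CDK6 inhibitor p19, had a change of 1.26 at 5 μM, and CDK6 of 1.19 from 0.69 FPKM with DMSO. CCNE1, the cyclin that activates CDK2 at the start of S phase, had 9.77, 2.14 and 1.01 FPKM, and its change of -3.15 at 5 μM was the largest of the list, while CCNE2 had 16.3, 13.5 and 11.8. RBL2, the pocket protein p130, had 7.41, 4.26 and 2.48 FPKM. E2F1 had changes of 0.67 and 0.62.

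The genes whose pair of changes lay nearest to that of a member were sought among 7582 genes with a mean of at least 5 FPKM, by the distance on the log2 scale over the 3 libraries. Nearest to CDKN1A were NKIRAS1, the processed pseudogene ENSG00000241494 and XAB2, with distances of 0.0091, 0.017 and 0.018. Nearest to MDM2 were TMX4, CCNB1 and ARHGAP12, with 0.0058, 0.0068 and 0.014. Nearest to GADD45A were KRT80, RPL22L1 and GADD45G, with 0.10, 0.18 and 0.18. With 3 libraries such likeness is a description of the values only.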
